A study of Homo sapiens with 8 samples.

Results

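The 10 genes described here encode secreted chemokines, 4 of the CC class (CCL2, CCL5, CCL7 and CCL20) and 6 of the CXC class (CXCL1, CXCL2, CXCL3, CXCL5, CXCL10 and CXCL11), out of 25369 genes in the expression tables. They were taken by symbol, and each of the 10 had its own line in both the count table and the FPKM table. The list was selected on measured values of the stiffness comparison, because it was drawn up with earlier results of these libraries known, CCL5 being among the genes lowest on the stiff matrix at 4 days. The differences of these 10 genes between stiff and soft matrix are therefore given as a description without a test. The differences between days were tested, but they use the same libraries, so that these tests are not independent of the choice of the genes. Bulk RNA-seq had been made from LX-2, an immortalized line of wild type human hepatic stellate cells, the liver cells that turn into matrix-producing myofibroblasts in fibrosis. The 4 conditions were a soft polyacrylamide hydrogel of 2 kPa for 2 days, a stiff hydrogel of 40 kPa for 2 days, the soft hydrogel for 4 days and the stiff hydrogel for 4 days, with 2 libraries in each and 8 in all. All cells had grown on culture plastic before they were seeded on the gels, and no condition received a drug or a genetic change. LX-2 is a single line. The labels number the libraries without naming their cultures, and the study describes its sequencing replicates as biological and from independent experiments, so the p-values measure the spread between experiments with 1 line.

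Chemokines bind G protein-coupled receptors on leukocytes and guide these cells along a concentration gradient. CCL2 and CCL7 attract monocytes through CCR2, CCL5 attracts T cells and monocytes, and CCL20 is the ligand of CCR6. CXCL1, CXCL2, CXCL3 and CXCL5 share the ELR motif before their first cysteines and attract neutrophils through CXCR2, whereas CXCL10 and CXCL11 lack it, are induced by interferon and attract activated T cells through CXCR3. Many of these genes are targets of NF-κB, and stellate cells are known to secrete several of the proteins during liver injury.

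On GRCh37, the human genome build to which the authors aligned the reads, 6 of the genes lie on chromosome 4. CXCL1 (chr4:74735110-74737025), CXCL5 (chr4:74861359-74864394), CXCL3 (chr4:74902306-74904524) and CXCL2 (chr4:74962757-74964913) form one group, with no protein-coding gene annotated in the 37911 bases between CXCL5 and CXCL3 or in the 58232 bases between CXCL3 and CXCL2. CXCL10 (chr4:76942271-76944650) and CXCL11 (chr4:76954835-76962568) are 10184 bases apart, again with no coding gene between them. On chromosome 17, CCL2 (chr17:32582293-32584227) and CCL7 (chr17:32597240-32599261) are separated by 13012 bases, and CCL5 (chr17:34198495-34207797) lies farther along. CCL20 (chr2:228670455-228682280) is alone on chromosome 2.

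RefSeq promoter windows on GRCh38.p14, from 250 bases before to 50 bases after the transcription start, were found for 8 of the 10 genes. CCL2 and CCL5, which had no window, are named only. A κB-type motif, spelled GGGANNNNCC and searched on both strands, occurred in 7 of these 8 windows, against 25.1% of the 27305 windows of the same length, with 1 window per gene symbol. It is the sequence class bound by NF-κB. The stretches below, from 130 to 51 bases before the start, are shown because the neutrophil-attracting CXC genes carry the same κB letters at nearly the same distance from the start. Each is written 5′ to 3′ on the strand of its gene. Capitals mark the κB match, and overlapping matches on opposite strands run together.
CXCL1 (chr4:73869263-73869342, plus strand): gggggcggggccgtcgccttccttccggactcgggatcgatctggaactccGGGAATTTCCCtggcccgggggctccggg
CXCL2 (chr4:74099246-74099325, minus strand): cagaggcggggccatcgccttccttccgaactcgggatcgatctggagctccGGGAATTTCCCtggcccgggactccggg
CXCL3 (chr4:74038740-74038819, minus strand): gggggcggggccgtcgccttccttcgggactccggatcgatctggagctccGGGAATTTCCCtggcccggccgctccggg
CXCL5 (chr4:73998728-73998807, minus strand): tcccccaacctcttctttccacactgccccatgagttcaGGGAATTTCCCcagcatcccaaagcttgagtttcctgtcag
CXCL11 (chr4:76036121-76036200, minus strand): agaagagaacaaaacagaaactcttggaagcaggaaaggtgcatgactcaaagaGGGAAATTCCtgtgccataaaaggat

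The match began 79 bases before the start in CXCL1, 78 in CXCL2, 79 in CXCL3 and 91 in CXCL5. Its letters GGGAATTTCC, looked up on either strand after the match had been seen, were present in 0.161% of all windows. The letters GGGAAATTCC, found in CXCL11 from 76 bases before the start, were also read in CXCL10 and, on the opposite strand, inside the match of CXCL1, CXCL2, CXCL3 and CXCL5, and occurred in 0.161% of all windows. CXCL10 is shown over its whole window, since it was the only one of the 8 genes with a match to GAAANNGAAA, the core of the interferon-stimulated response element, which 3.65% of all windows held.
CXCL10 (chr4:76023448-76023747, minus strand): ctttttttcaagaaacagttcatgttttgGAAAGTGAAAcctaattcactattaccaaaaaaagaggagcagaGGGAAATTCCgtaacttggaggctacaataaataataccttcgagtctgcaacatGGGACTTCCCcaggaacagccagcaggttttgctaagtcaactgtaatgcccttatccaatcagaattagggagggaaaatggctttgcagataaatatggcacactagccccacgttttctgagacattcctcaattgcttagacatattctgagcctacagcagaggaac

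In CXCL10 the capitals mark, in order, the interferon-type match from 221 bases before the start and κB matches from 177 and 122 bases before it. An AP-1 motif, TGANTCA, was read in CCL7 and CXCL11 and in 7.76% of all windows, and a TATA box, TATAAA, in CCL7, CCL20 and CXCL11 and in 12% of all windows. No motif overlapped another of a different kind. These matches describe letters, not bound sites.

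**Figure D1:**
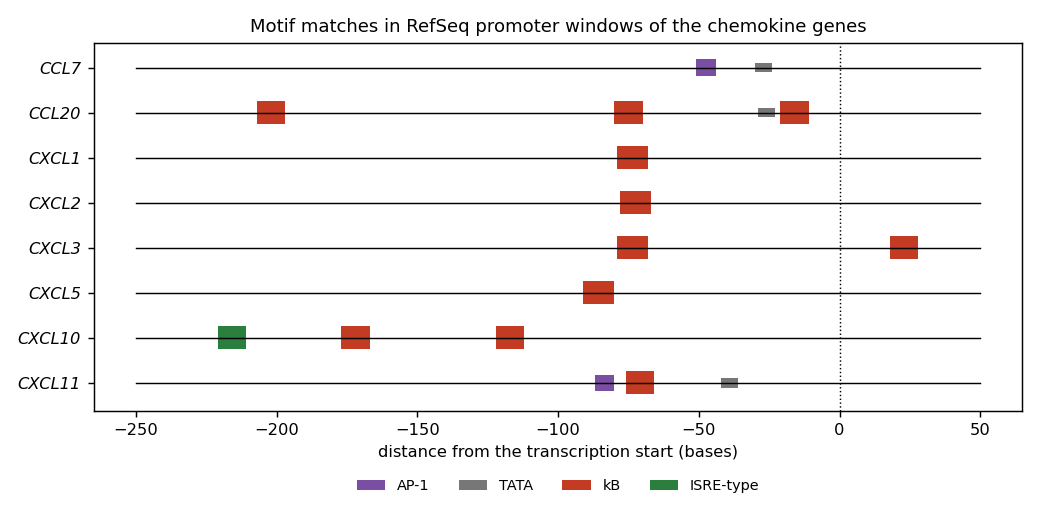
Motif matches in the promoter windows of 8 chemokine genes, with the distance from the transcription start in bases on the horizontal axis. Boxes mark matches on either strand to the κB-type, interferon-type (ISRE-type in the key), AP-1 and TATA motifs, and the κB box lies between 91 and 68 bases before the start in CXCL1, CXCL2, CXCL3 and CXCL5, with a further box after the start in CXCL3.

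The libraries held between 19955975 and 27263935 counts, with a median of 22598474, and 14570 genes passed a filter on low counts. The stiff 4-day libraries stood apart from each other: 10.6% of genes whose average log2 CPM reached 1 differed by over 2-fold between them, against 0.0247% to 0.732% in the other conditions. Where leaving out 1 of these libraries ended a call or moved a fold change by over 1.5 times, the value without it is given below. Of 14 stellate markers 11 passed the filter, and PDGFRA, DES and LRAT did not. The sum of all 14 lay between 3920 and 8900 counts per 1000000 (CPM). The summed CPM of markers of other cells was 4.45 to 10.5 for hepatocytes (TTR at 0), 91.7 to 127 for macrophages (mostly CD68, with CD163 at 0), 0.835 to 1.55 for endothelial cells, 0.147 to 0.691 for lymphocytes (CD3E and MS4A1 at 0) and 32.2 to 71.2 for cholangiocytes. Differences between conditions in some of these sums came mostly from single genes. The macrophage sum was higher on the stiff matrix on both days through CD68, while CD14 (log2 fold change -0.76 at 2 days and -0.33 at 4 days) and CSF1R (-0.59 and -0.88) lay lower there. The stellate sum was higher at 4 days on both matrices through VIM, while COL1A1 lay lower (-0.47 on soft and -0.57 on stiff), and the cholangiocyte sum through SOX9, with KRT7 at -0.11 and 0.27. The part of these cells in the differences below was not tested. In bulk RNA, fewer cells expressing a gene and less RNA per cell cannot be told apart.

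Compared per length as FPKM, CXCL1 was the most abundant of the 10 transcripts in every condition, with means at 2 days of 55 ± 2.42 (soft) and 21.6 ± 6.09 (stiff) and at 4 days of 85 ± 15.9 (soft) and 30.4 ± 9.64 (stiff; SD, n = 2). CCL2 followed in each condition, at 13.1 ± 2.15, 3.39 ± 2.02, 29 ± 2.38 and 4.99 ± 2.73 FPKM in the same order (SD, n = 2). Its libraries overlapped those of CXCL2, the next gene, on the stiff matrix at 2 days.

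The place of CCL5 in the order differed between conditions. On the soft matrix at 4 days it was the next after CCL2, at 21 ± 3.27 FPKM (SD, n = 2), and its libraries did not overlap those of CXCL5 below it, at 6.72 ± 0.118. On the stiff matrix at 4 days CCL5 was at 1.66 ± 0.0384 FPKM, below CXCL5 at 2.47 ± 0.493 and CXCL2 at 2.38 ± 0.504, neighbours whose libraries overlapped. The libraries of CXCL2 and CCL5 overlapped on the soft matrix at 2 days, as did those of CXCL3 and CXCL5, of CXCL11 and CCL7, and of CCL7 and CCL20. The rest of the order on the soft matrix at 4 days was CXCL2 at 6.02, CXCL3 at 2.98, CXCL10 at 1.85, CXCL11 at 0.869, CCL20 at 0.569 and CCL7 at 0.138 FPKM, where CXCL5 overlapped CXCL2 and CXCL11 overlapped CCL20. At 2 days on the stiff matrix, CXCL2, CXCL5 and CXCL3 lay at 2.82, 2.42 and 2.4 FPKM with overlapping neighbours, above CCL5 at 1.53, and the other 4 genes were at 0.0514 FPKM or less.

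**Figure D2:**
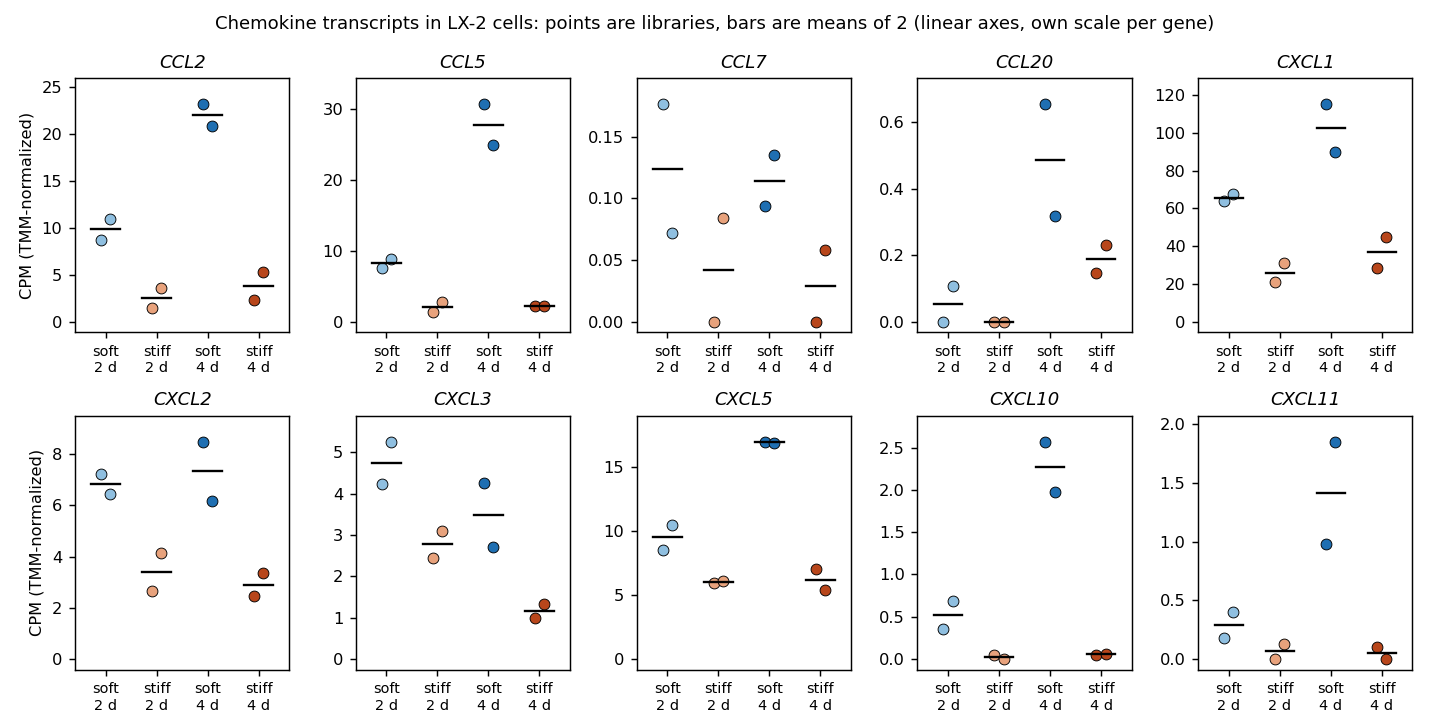
CPM scaled by TMM of each chemokine on a linear axis of its own, by condition; each point is a library and each bar the mean of 2. CCL5 at 4 days reached 30.7 and 25 (soft) against 2.16 and 2.25 (stiff), and CCL7 and CCL20 stayed below 1 CPM throughout.

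CCL7 and CCL20 had too few counts to be tested. The libraries of CCL7, a monocyte attractant, held at 2 days 5 and 2 counts (soft) and 0 and 2 counts (stiff), and at 4 days 2 and 3 counts (soft) and 0 and 1 counts (stiff). The ratio of its summed counts, soft over stiff, was 2.97 at 2 days (exact 95% interval 0.566 to 29.3) and 4.33 at 4 days (0.484 to 205), so that no difference was detectable at this depth. CCL20, the CCR6 ligand, had at 2 days 0 and 3 counts (soft) and 0 and 0 counts (stiff). A count of 0 in a stiff 2-day library allows up to 0.126 and 0.129 CPM of the total, taking 3 counts as the limit. At 4 days CCL20 had 14 and 7 counts (soft) and 3 and 4 counts (stiff), a ratio of 2.6 (1.06 to 7.23). These intervals and limits cover counting error only.

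The question of the study was how matrix stiffness alters stellate cells, and each of the 10 chemokines had its higher mean on the soft matrix on either day. The monocyte attractant CCL2 had CPM of 8.7 and 10.9 on the soft and 1.47 and 3.6 on the stiff matrix at 2 days. At 4 days the CCL2 values were 23.1 and 20.8 on the soft and 2.31 and 5.24 on the stiff matrix. The groups did not overlap on either day, while the stiff libraries of each day were over 2-fold apart from each other. The log2 fold change of CCL2, stiff against soft, was -1.95 (SE 0.447) at 2 days and -2.55 (SE 0.443) at 4 days. With 1 library left out it ranged from -2.73 (without stiff 2-day replicate 2) to -1.45 at 2 days, and from -3.24 (without stiff 4-day replicate 2) to -2.06 (without stiff 4-day replicate 1) at 4 days.

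CCL5 showed the widest separation among the chemokines with at least 10 counts in every library. Its CPM at 2 days were 7.6 and 8.89 on the soft and 1.3 and 2.72 on the stiff matrix. At 4 days they were 30.7 and 25 on the soft and 2.16 and 2.25 on the stiff matrix. The soft level was thus 4.09-fold the stiff level at 2 days and 12.6-fold at 4 days, with log2 fold changes of -2.03 (SE 0.307) and -3.66 (SE 0.316). Without stiff 2-day replicate 2 the 2-day value was -2.66, and with 1 library left out the 4-day value lay between -3.80 and -3.49. The stiff levels of CCL5 at 2 and 4 days overlapped, and the soft levels did not.

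Among the neutrophil attractants, CXCL1 had CPM of 63.7 and 67.5 on the soft and 20.7 and 30.9 on the stiff matrix at 2 days. At 4 days CXCL1 stood at 115 and 89.8 on the soft and 28.3 and 44.9 on the stiff matrix. Its log2 fold change was of similar size on the 2 days, -1.35 (SE 0.271) and -1.49 (SE 0.272), with no overlap of libraries.

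CXCL2 is a close relative of CXCL1 with the same receptor. Its soft and stiff CPM were 7.22 and 6.44 against 2.65 and 4.15 at 2 days, and 8.49 and 6.18 against 2.46 and 3.34 at 4 days. The log2 fold changes of CXCL2 were -1.01 (SE 0.28) and -1.34 (SE 0.292), and soft and stiff libraries did not overlap.

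CXCL3 had the smaller differences at 2 days together with CXCL5. Its CPM were 4.22 and 5.25 on the soft and 2.44 and 3.1 on the stiff matrix at 2 days, and 4.25 and 2.71 on the soft and 0.982 and 1.32 on the stiff matrix at 4 days. The log2 fold change of CXCL3 went from -0.77 (SE 0.287) to -1.59 (SE 0.332), and the libraries did not overlap on either day. CXCL3 was the only one of the 6 well-counted chemokines whose mean was lower at 4 than at 2 days on the soft matrix.

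CXCL5 differed least at 2 days, with CPM of 8.55 and 10.5 on the soft and 5.92 and 6.12 on the stiff matrix. At 4 days the CXCL5 values were 17 and 16.9 on the soft and 7.07 and 5.36 on the stiff matrix. Its log2 fold change was -0.66 (SE 0.19) at 2 days and -1.44 (SE 0.192) at 4 days, again without overlap. Exons of CXCL5 overlap those of an unnamed gene, ENSG00000287037, on the opposite strand, and the strand setting of the counting was not given in the sources used here, so reads of the overlapping part cannot be assigned. The transcripts of CXCL1 and CXCL2 were 90.9% identical where aligned, those of CXCL2 and CXCL3 83.6% and those of CXCL1 and CXCL3 82.2%. Of the 75-base windows of these transcripts, CXCL1 and CXCL2 shared 3 and CXCL2 and CXCL3 shared 23 (2.21% of CXCL2), so counts of such short stretches are uncertain.

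The CXCR3 ligands had at most 3 counts in any stiff library. CXCL10 had 10 and 19 counts on the soft and 1 and 0 on the stiff matrix at 2 days. At 4 days CXCL10 had 55 and 44 counts on the soft and 1 and 1 on the stiff matrix. The ratio of its summed counts, soft over stiff and scaled for library size, was 24.6 (exact 95% interval 4.08 to 1010) at 2 days and 42.8 (11.5 to 359) at 4 days. CXCL11 had 5 and 11 counts on the soft and 0 and 3 on the stiff matrix at 2 days, and 21 and 41 on the soft and 2 and 0 on the stiff matrix at 4 days. Its ratio was 4.53 (1.3 to 24.2) at 2 days and 26.8 (7.12 to 226) at 4 days. Both genes passed the filter only through their soft 4-day libraries, the condition in which they were highest, since 1 soft 2-day library of CXCL10 and 0 of CXCL11 reached its limit of 0.443 CPM.

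**Figure D3:**
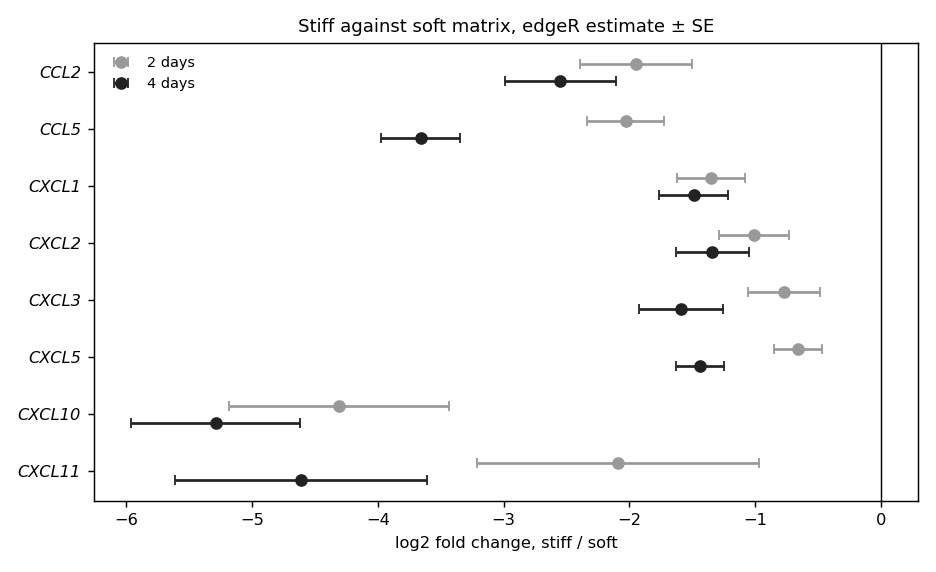
Log2 fold change, stiff against soft matrix, of the 8 chemokines with enough counts, at 2 days (grey) and 4 days (black); bars are standard errors from edgeR. Every point lies below 0, from -0.66 for CXCL5 at 2 days to -5.29 for CXCL10 at 4 days, and the points of CXCL10 and CXCL11 rest on 3 or fewer counts in the stiff libraries of a day.

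Counted over the 8 tested chemokines, all 8 had every stiff library below every soft library on either day. The untested CCL7 and CCL20 had this order at 4 days only, on few counts. Among all genes tested, 22.4% at 2 days and 14% at 4 days were lower in this way. At a Benjamini-Hochberg adjusted p under 0.05 in edgeR, 0 chemokines at 2 days (0% of all genes, with 411 genes at an unadjusted p under 0.05) and 3 at 4 days, namely CCL5, CXCL5 and CXCL10 (0.213% of all genes lower), passed. DESeq2 called 3 chemokines at 2 days and 8 at 4 days. Nothing is read from these counts, since the list was chosen with this comparison known. The median log2 fold change of the 6 chemokines with at least 10 counts in every library was -1.18 at 2 days and -1.54 at 4 days, against 0.0081 and 0.02 over all genes tested.

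The number passing depended on the libraries in the fit, although no log2 fold change of these 8 genes was above 0 under any alternative. Without either stiff 4-day library, more chemokines passed on both days, and so did more of all genes. At 4 days, leaving out any 1 of the soft or the stiff 2-day libraries gave fewer chemokines and fewer of all genes. The replicate block, with all 8 libraries, gave 1 chemokine as lower at 4 days, beside 11 of all 14570 genes.

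The comparison of 4 days with 2 days on the soft matrix asked how the transcripts moved with time in culture, and it shares its libraries with the stiffness comparisons. Of the 6 chemokines with at least 10 counts in every library, 2 passed the edgeR test as higher at 4 days, CCL5 and CXCL5, and 0 as lower, beside 14.1% of all genes that rose and 13.3% that fell. CCL5 went from 8.25 ± 0.907 to 27.8 ± 4.05 CPM (SD, n = 2), 3.37-fold (log2 fold change 1.75, SE 0.275). The soft 4-day libraries are among the values that put CCL5 on the list, so its difference between days is a description and no p is given. CXCL5 rose 1.78-fold, from 9.51 ± 1.35 to 16.9 ± 0.119 CPM (log2 fold change 0.83, SE 0.184). It is on the same list and its rise rests on the same libraries, so it is given without a p too.

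The interferon-inducible pair is described without a test, because both genes passed the filter only through the soft 4-day libraries. CXCL10 stood at 0.518 ± 0.234 and 2.28 ± 0.412 CPM (SD, n = 2), and the ratio of its summed counts, 4 days over 2 days, was 4.4 (exact 95% interval 2.88 to 6.9). CXCL11 stood at 0.286 ± 0.155 and 1.41 ± 0.614 CPM, a ratio of 4.99 (2.85 to 9.27). In each of these 4 genes both 4-day libraries lay above both 2-day libraries. CCL2, with a log2 fold change of 1.16 (SE 0.405, adjusted p = 0.068), and CXCL1, with 0.65 (SE 0.265, adjusted p = 0.107), had the same order of libraries without passing the test in edgeR. CXCL2 (0.10, adjusted p = 0.802) and CXCL3 (-0.45, adjusted p = 0.271) overlapped between the days. Of the 8 tested chemokines, 6 were higher at 4 days without overlap (38.5% of all genes tested) and 0 lower (36.7%). The untested CCL20 was also higher without overlap. Its summed counts went from 3 to 21, a ratio of 9.02 (exact 95% interval 2.69 to 47.2).

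The call of CXCL5 was lost when 1 soft library was left out, where the lone library of a condition is assumed to vary like the others. That of CCL5 did not hold in every fit without 1 library either, with log2 fold changes from 1.57 to 1.90. The log2 fold change of CXCL5 stayed between 0.69 and 0.99 with 1 library left out. Without either stiff 4-day library, CCL2 and CXCL1 passed as well.

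On the stiff matrix, 1 of the same 6 chemokines fell between 2 and 4 days and 0 rose, beside 13.7% of all genes that fell and 14% that rose. The gene was CXCL3, which went from 2.77 ± 0.47 to 1.15 ± 0.242 CPM (SD, n = 2; log2 fold change -1.27, SE 0.335). It is on the same list and its fall rests on libraries of the stiffness comparisons, so it is a description and no p is given. CCL5 stood at 2.01 ± 1 and 2.2 ± 0.0603 CPM (log2 fold change 0.13, SE 0.341, adjusted p = 0.801 in edgeR) and CXCL5 at 6.02 ± 0.138 and 6.21 ± 1.21 (0.05, SE 0.195, adjusted p = 0.869). The log2 fold changes were 0.56 for CCL2 (SE 0.473, adjusted p = 0.406), 0.50 for CXCL1 (SE 0.27, adjusted p = 0.198) and -0.23 for CXCL2 (SE 0.3, adjusted p = 0.589) in edgeR.

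CXCL10 and CXCL11 had 3 or fewer summed counts at either day on the stiff matrix, and CCL20 had 0 counts at 2 days and 3 and 4 at 4 days. Of the 8 tested chemokines, CXCL3 alone was lower at 4 days without overlap (31.1% of all genes tested), and CXCL10 alone was higher (31.6%), on 2 counts at 4 days. The untested CCL20 was also higher without overlap, on 7 counts. The call of CXCL3 was lost without any of the soft 2-day or stiff 2-day libraries, with the replicate block and in a fit of the stiff libraries alone. Without stiff 4-day replicate 1, the log2 fold changes from 2 to 4 days were 1.04 for CCL2 and 0.80 for CXCL1. Without stiff 4-day replicate 2 they were -0.15 and 0.12, so the size of both, and the sign for CCL2, depended on the library kept.

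**Figure D4:**
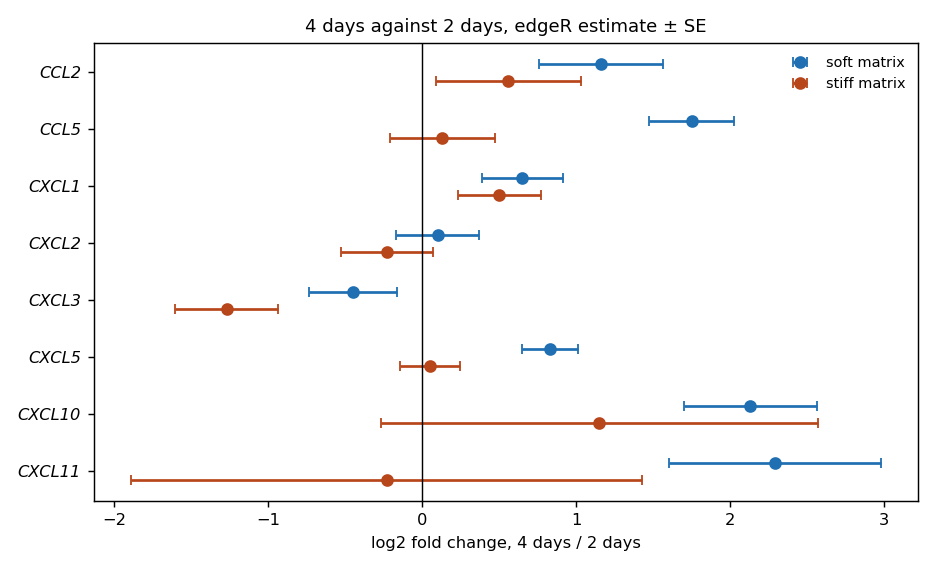
Log2 fold change, 4 days against 2 days, of the 8 tested chemokines on the soft matrix (blue) and the stiff matrix (brown); bars are standard errors from edgeR. CCL5 lies at 1.75 on the soft and 0.13 on the stiff matrix, and CXCL3 is the lowest point, at -1.27 on the stiff matrix; the points of CXCL10 and CXCL11 rest on genes that passed the filter through 1 condition.

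The difference between the stiffness effects of the 2 days, which is also the difference between the time effects of the 2 matrices, was below 0 in each of the 8 tested chemokines. It is built from the stiffness comparisons and is given as a description. It was -1.63 (SE 0.435) for CCL5, -0.82 (SE 0.44) for CXCL3, -0.78 (SE 0.268) for CXCL5, -0.60 (SE 0.621) for CCL2, -0.34 (SE 0.403) for CXCL2 and -0.14 (SE 0.377) for CXCL1 on the log2 scale. No chemokine passed the edgeR test, and 0% of all genes did, with 284 genes at an unadjusted p under 0.05 and 3 genes called by DESeq2. Without stiff 4-day replicate 1, the difference was -1.59 for CCL5 and -0.99 for CXCL5. The stiff 2-day libraries also bore on its sign, which for CCL2, CXCL1, CXCL2 and CXCL11 turned positive without stiff 2-day replicate 2.

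The chemokines varied together across the 8 libraries to different degrees. The log2 CPM of CCL2 and CXCL1 had a Pearson r of 0.992 and those of CXCL5 and CXCL10 one of 0.972, while CXCL3 had values from 0.5 with CXCL11 to 0.824 with CXCL2. These 28 pairs are descriptions, because the libraries share 4 conditions. Among 12159 other genes whose average log2 CPM reached 1, the gene most like CCL5 was GBP3, an interferon-inducible GTPase (r = 0.994), and the gene most like CCL2 was CFB, complement factor B (r = 0.989). CXCL1 was nearest to RARRES3 (r = 0.983) and also near CFB (r = 0.978). OAS2, an interferon-induced sensor of double-stranded RNA, was among the 3 nearest genes of CXCL5 (r = 0.988), CXCL10 (r = 0.967) and CXCL11 (r = 0.968). ERAP2, an aminopeptidase of antigen processing, was nearest to CXCL10 (r = 0.98). BIRC3, an inhibitor of apoptosis induced by NF-κB, was nearest to CXCL11 (r = 0.977), INSIG1, a regulator of sterol synthesis, to CXCL2 (r = 0.981) and PIK3IP1 to CXCL3 (r = 0.995).

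The lists of related genes that follow were also drawn up with earlier results of these libraries known, so their calls are not independent evidence of a direction. Of 13 further CXC, CX3C and XC ligands, 5 had enough counts. At 4 days 2 of these were lower on the stiff matrix by the edgeR test, CXCL8, the neutrophil attractant interleukin-8 (252 ± 13.7 CPM on soft and 64.9 ± 1.77 on stiff, SD, n = 2; log2 fold change -1.95, adjusted p = 0.0155), and CXCL6, its close relative (6.96 ± 0.785 and 1.35 ± 0.527 CPM; -2.37, adjusted p = 0.0331), beside 0.213% of all genes. Both signal through CXCR2, as the ELR chemokines above do. CXCL12, a homeostatic ligand of CXCR4, was the most counted of them and stood at 635 ± 4.12 CPM on the soft and 512 ± 0.483 on the stiff matrix at 4 days (log2 fold change -0.31, adjusted p = 0.694 in edgeR). Over time, CXCL6 (1.91, adjusted p = 0.00391) and CXCL8 (1.15, adjusted p = 0.00687) rose on the soft matrix in edgeR. On the stiff matrix, CXCL8 rose (0.65, adjusted p = 0.0456) and CXCL12 fell (-0.57, adjusted p = 0.0169) in edgeR. CXCL14 passed the filter only through its 4-day libraries and is given by its counts, on the soft matrix 8 and 10 at 2 days and 24 and 42 at 4 days, and on the stiff matrix 5 and 7 and then 20 and 13. Of 20 further CC ligands only CCL26, an eosinophil attractant, was tested, and it rose on the stiff matrix (1.03, adjusted p = 0.0453 in edgeR), a call lost without stiff 4-day replicate 2 (0.50, adjusted p = 0.118).

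Of 22 chemokine receptors, 5 were tested and 0 passed between the matrices on either day in edgeR or in DESeq2, with 0 at an unadjusted p under 0.05. Of all 14570 genes tested in edgeR, 0 passed at 2 days and 36 at 4 days. A count of 0 in a short list is therefore no evidence that levels were equal. ACKR1, a decoy receptor of many chemokines, had 4 and 4 counts at 2 days and 25 and 22 at 4 days on the soft matrix, and since it passed the filter only through the latter this difference is given without a test. The main cytokines upstream of these ligands were uneven: TNF had at most 4 counts in a library, and IFNB1 and IFNG had 0 counts in all 8. Of 15 tested ligands and sensors upstream, 0 passed between matrices in edgeR, with 3 at 2 days and 4 at 4 days at an unadjusted p under 0.05. DESeq2 called 1 and 0 of them. The same limit applies to this count of 0, and 12 of the 15 had a log2 fold change below 0 at 2 days and 14 at 4 days. In edgeR 5 of the 15 passed as higher at 4 days on the soft matrix, beside the 14.1% of all genes, among them TLR4, the lipopolysaccharide receptor (log2 fold change 2.04, adjusted p = 0.00449 in edgeR), and the cytokine IL1A (1.63, adjusted p = 0.0103). One of the 5, TLR2, passed the filter only through the soft 4-day libraries. On the stiff matrix 3 of the 15 rose, beside 14% of all genes, TLR4 (2.01, adjusted p = 0.00584), IL1A (2.03, adjusted p = 0.01) and IL1B (0.75, adjusted p = 0.0158) in edgeR. None of the upstream genes passed as lower over time in the fit to all 8 libraries. The log2 fold change was below 0 in 7 of the 15 on the soft and 4 on the stiff matrix.

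All 16 genes listed for NF-κB signalling were tested, and at 4 days 1 was lower on the stiff matrix (0.213% of all genes were), TRAF1, an adaptor of TNF receptors (log2 fold change -1.80, adjusted p = 0.0261 in edgeR). On the soft matrix BIRC3 rose with time (0.90, adjusted p = 0.0354), and IKBKG, which has a near-identical pseudogene (-1.09, adjusted p = 0.00296), and IKBKB (-0.66, adjusted p = 0.00942), subunits of the IκB kinase, fell in edgeR, which is 1 higher and 2 lower of 16 beside 14.1% and 13.3% of all genes. On the stiff matrix 3 of the 16 fell, IKBKG, IKBKB and NFKB2, beside 13.7% of all genes, and 0 rose, beside 14%. All 15 genes listed for interferon signalling were tested. At 4 days 2 that reached the filter limit in all conditions passed as lower on the stiff matrix in edgeR (0.213% of all genes did). These were the antiviral effector IFIT1 (log2 fold change -1.23, adjusted p = 0.0295) and the transcription factor IRF1 (-1.11, adjusted p = 0.0362). OAS1 passed the filter only through the soft libraries, where it was higher, and is not counted here. It is given by its counts at 4 days, 108 and 83 on the soft and 8 and 8 on the stiff matrix. Between the days, IFIT1, OAS1 and MX1 were among those that rose and 2 fell (the kinase TYK2 and the feedback inhibitor SOCS1) on the soft matrix, and 1 rose (IFIT1) and 3 fell (TYK2, SOCS3 and SOCS1) on the stiff matrix, with the same shares of all genes beside them. At 2 days 0 genes of the NF-κB and interferon lists passed between the matrices in edgeR, as did 0 of all genes. At an unadjusted p under 0.05 there were 4 and 6, and DESeq2 called 1 and 0. The calls of CXCL8, CXCL6, TRAF1, IFIT1 and IRF1 between the matrices at 4 days were lost without any 1 of the soft libraries. Those of CXCL6, IFIT1 and IRF1 were also lost without either stiff 2-day library. All of them held without either stiff 4-day library. Of the calls over time on these lists, those of IKBKG and IFIT1 on the soft matrix and of TYK2 on both held in each of the 8 fits without 1 library, and each of the others was lost without at least 1 of the 2-day libraries. Without either stiff 4-day library, more genes of both lists were called between the matrices at 4 days, and so were more of all genes. The larger numbers are therefore not read as a result about the lists. The median log2 fold change at 4 days was -0.36 over the interferon list and -0.045 over the NF-κB list.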

How the data were processed

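Total RNA of LX-2 cells was sequenced as read pairs, 2 libraries per condition. The sequencer is named differently by the labels and the study's methods. Per the submitters' processing notes, reads were trimmed with Trim Galore, aligned to hg19 with STAR 2.7.1a and counted with HTSeq. The gene annotation and strand setting are not given in the sources used here. The deposited counts are whole reads per gene, not normalized. The deposited FPKM, computed by the authors from the same genes, divide the counts by gene length and by size factors.

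Counts were tested with edgeR 4.0.16 in R 4.3.3 on the 14570 of 25369 genes (57.4%) that passed filterByExpr, with TMM factors (0.8704 to 1.08) and 1 quasi-likelihood fit of 4 conditions to all 8 libraries. Calls were made at a Benjamini-Hochberg adjusted p under 0.05. CPM in the text use the TMM library sizes, and a prior count of 2 was added before taking log2. Ratios of summed counts carry exact 95% intervals that cover counting error only. At these depths a gene of a few counts cannot show modest differences, and 2 libraries limit every comparison. The procedure was tested on simulated data.

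The members and the gene lists were chosen with earlier results of these data known. All 10 chemokines are named. From each pathway list, up to 4 called genes with the smallest p per comparison may be named, and for each tested chemokine the 3 genes with the highest Pearson r. TNF, IFNB1, IFNG, CXCL12 on the stiffness comparison and the single marker genes were named after their values were seen. Gene positions come from GENCODE v44lift37 and promoters from RefSeq, GRCh38.p14. Alternatives were DESeq2 1.42.0, other scaling and filters, separate fits, a replicate block, leaving out each library, and limma 3.58.1 on log2(FPKM + 1) and log2(FPKM + 0.1). A crossed pairing at 4 days was added after seeing the data. Some genes of the lists are not reported here.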

Additional observations from a re-analysis of the deposited data

How the results depend on the processing

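The log2 fold changes of the 8 tested chemokines, stiff against soft, kept their negative sign in each of the 146 values at 2 days and 148 at 4 days computed under the alternatives, whereas the numbers of calls did not hold. DESeq2 called 28 genes and 3 chemokines at 2 days, 164 and 8 at 4 days, and 3 genes for the change of the stiffness effect. Fits to the libraries of 1 comparison called 667 genes and 6 chemokines at 2 days, 0 and 0 at 4 days, 7261 genes for time on the soft matrix, and 0 genes and 0 chemokines for time on the stiff matrix. Limma on log2(FPKM + 1) without a filter called 78 genes at 2 days, 0 chemokines at 4 days, 0 for time on the stiff matrix and 100 genes for the change of the stiffness effect, for which log2(FPKM + 0.1) called 1 gene. At least 10 counts in every library left 2 chemokines called for time on the soft matrix, as CXCL10 and CXCL11 were then not tested. For other differences the cause was not tested.

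Leaving out 1 library gave 0 to 122 genes and 0 to 6 chemokines at 2 days, and 0 to 4676 genes and 0 to 8 chemokines at 4 days. For time it gave 347 to 7941 genes and 0 to 6 chemokines on the soft matrix, and 470 to 7826 genes and 0 to 3 chemokines on the stiff matrix. For the change of the stiffness effect it gave 0 to 3139 genes and 0 to 2 chemokines, the upper ends coming without a stiff 4-day library. Log2 fold changes over time that changed sign in these fits ranged from -0.17 to 0.31 for CXCL2 with soft libraries, and with stiff libraries from -0.15 to 1.34 for CCL2, -0.30 to 0.75 for CCL5, -3.69 to 3.42 for CXCL11, -0.52 to 0.12 for CXCL2 and -0.17 to 0.22 for CXCL5. For CXCL11, 0.59 was found without stiff 4-day replicate 2. The change of the stiffness effect ranged from -1.28 to 0.18 for CCL2, -0.50 to 0.17 for CXCL1 (0.067 without soft 4-day replicate 1), -1.82 to 1.31 for CXCL10, -5.96 to 1.13 for CXCL11 and -0.62 to 0.022 for CXCL2. Without scaling factors the median of all genes over time on the stiff matrix moved from 0.028 to -0.104, CCL5 to -0.0041 and CXCL5 to -0.07. The genes called over time were then 1438 higher and 2130 lower on the soft matrix (2052 and 1933 with TMM) and 1305 and 2313 on the stiff matrix (2034 and 1990).

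The replicate numbers of the labels were not treated as pairs, since deviations of same-numbered libraries had correlations of -0.0358 at 2 days, -0.49 at 4 days, 0.0773 on the soft and 0.0246 on the stiff matrix. A replicate block called 0 genes at 2 days, 14 genes and 1 chemokine at 4 days, 2626 genes and 3 chemokines for time on the soft matrix, and 2543 genes and 0 chemokines on the stiff matrix. Crossing the numbers at 4 days gave 62 genes and 3 chemokines at 4 days. Depth limits CCL7, CCL20, CXCL10 and CXCL11, whose stiff libraries held at most 4 counts.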
